A study of Macaca mulatta with 12 samples.

Results

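Lambda variable gene usage was described in blood B cells of 6 rhesus macaques, 2 males sequenced as batch 1 and 4 females sequenced as batch 2. The animals were juveniles of 2 to 3 years, of Indian origin, healthy and not manipulated. Each animal gave a 5' gene expression library and a B cell receptor (BCR) library from blood mononuclear cells, so the 12 libraries are 6 animals, and sex and batch cannot be told apart. A cell entered as a lambda cell when it held exactly 1 productive light chain contig (an assembled receptor sequence) and the variable, joining and constant genes of that contig all began with IGL. By this rule 6895 of 15041 barcodes with a productive BCR contig were lambda cells and 6756 were kappa cells. Lambda cells numbered 1459 in male 1, 1476 in male 2, 1424 in female 1, 858 in female 2, 1290 in female 3 and 388 in female 4. The 893 barcodes with 2 or more light contigs, which held 942 IGL contigs, were left out. All 13849 cells of the deposited cell table carry the authors' doublet call Singlet, and no doublet caller was run here. Doublets of a lambda cell with a cell lacking a light contig would not be seen by the rule.

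Of the 6895 lambda cells, 5622 carried 1 of the authors' B cell names in the deposited cell table, 176 were named Contamination and 1097 were not in that table. The results below are over the 5622 named cells, from 246 in female 4 to 1237 in male 1, with 3 exceptions. The common V sequences, the search for a cell's CDR3 in other animals and the count of lambda barcodes in 2 or more libraries drew on all 6895. The subtype names (Naive B cells 1, M-MZL BC, Activated B cells, M-MBC 1 and 2, CD11c+ MBC 1 and 2, C-MBC 1 and 2) are the authors' and are not expanded here, and whether immunoglobulin genes entered that naming is not given in the sources used here. A single heavy chain with a constant gene gave the class of most of these cells: 1180 were switched (1098 IgG, 79 IgA and 3 IgE) and 3554 unswitched (2847 IgM and 707 IgD). The median lambda contig rested on 27 molecular identifiers (UMIs), with medians of 15 to 41 across animals. Lambda cells belonged to 5498 clonotypes, the cell families called by the authors' pipeline, and 95.9% of cells were the only lambda cell of theirs.

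A B cell generally rearranges its kappa locus before its lambda locus, and a lambda cell joins 1 IGLV gene to 1 IGLJ gene that sits just upstream of its own IGLC gene. No D segment and few added bases enter this joint, so light chains are less diverse than heavy chains at the third complementarity-determining region (CDR3), which spans the V to J joint. Lambda genes are grouped into families by sequence, and the families differ in the loops they bring to the antigen-binding site.

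The lambda label held in the expression libraries. IGKC, the kappa constant gene, averaged 37.3 ± 15.2 CPM (counts scaled to library size) in lambda cells and 893 ± 229 CPM in kappa cells (SD, n = 6 animals), and 4.68% of lambda cells against 86.2% of kappa cells had an IGKC UMI. All 5 B cell markers were detected, with summed levels of 2614 to 4693 CPM in lambda cells across animals. The defining markers of other cells were low in level in lambda cells, with sums of 25.2 to 145 CPM for T cells, 7.53 to 172 CPM for NK cells, 16.1 to 73.0 CPM for monocytes and 5.31 to 148 CPM for platelets. Of these, LYZ was detected in 17.3% of lambda cells, PPBP in 16.0%, CD3D in 12.1%, PF4 in 10.9% and the others in 9.45% or fewer. B cell markers were detected in 55.1% (PAX5) to 97.8% (CD79A). The source of the other cells' RNA was not tested. Of 9 IGLV genes in the expression libraries, 7 had at least 89.6% of their UMIs in lambda cells of 1 BCR gene. The other 2, listed as IGLV4-3 and IGLV9-49, matched none, with at most 17.1% and 12.8% of their UMIs in cells of any 1 BCR gene. All 122 cells with an IGLV10-114 contig had a UMI of the gene listed as IGLV10-54, and IGLV10-114 cells held 96.8% of its UMIs in lambda cells. The libraries thus use different names, and the BCR names are used throughout. Of the barcodes, 111 were found in 2 or more libraries, 24 of them in lambda cells, and 0 of those 24 carried the same lambda CDR3 in both.

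Some lambda CDR3 sequences were identical between animals. For 8 of the 10 most used IGLV genes, the CDR3 found in the most animals is printed below, since the sharing results turn on such sequences. The other 2 are not printed: that of IGLV8-125 was in 4 animals and 6 cells, 2.15% of the gene's cells and the least of the 10, and that of IGLV2-23 in 6 animals and 17 cells. They are read from the deposited contigs, 5′ to 3′ from the conserved cysteine codon to the conserved phenylalanine codon, and capitals mark the bases at the 3′ end shared by at least 50% of CDR3s with that IGLJ gene.
IGLV3-34 with IGLJ1: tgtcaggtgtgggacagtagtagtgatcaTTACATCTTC
IGLV2-38 with IGLJ1: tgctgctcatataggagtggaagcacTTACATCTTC
IGLV2-32 with IGLJ1: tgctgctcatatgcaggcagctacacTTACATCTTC
IGLV1-85 with IGLJ3: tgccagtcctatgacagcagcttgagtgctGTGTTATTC
IGLV3-25 with IGLJ1: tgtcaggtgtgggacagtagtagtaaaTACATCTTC
IGLV1-66 with IGLJ1: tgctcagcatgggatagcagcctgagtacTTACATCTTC
IGLV1-67 with IGLJ1: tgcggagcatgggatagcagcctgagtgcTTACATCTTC
IGLV2-46 with IGLJ1: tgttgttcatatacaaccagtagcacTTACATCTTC

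The IGLV2-38 sequence was carried by 36 cells in 6 of 6 animals, 9.73% of all IGLV2-38 cells, and those with 1 heavy chain held 30 different heavy CDR3s. The IGLV1-85, IGLV1-67 and IGLV2-46 sequences were also found in 6 animals, in 22, 19 and 29 cells, and the other printed sequences in 5. Sequences of 4 further genes are given because these genes carry the differences between subtypes described below, a choice made after their values were seen.
IGLV10-114 with IGLJ2A: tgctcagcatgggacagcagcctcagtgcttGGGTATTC
IGLV7-80 with IGLJ2A: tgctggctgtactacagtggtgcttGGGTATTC
IGLV3-36 with IGLJ1: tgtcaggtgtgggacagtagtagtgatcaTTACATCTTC
IGLV3-44 with IGLJ1: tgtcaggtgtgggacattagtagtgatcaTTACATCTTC

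The IGLV3-36 sequence is the same as that of IGLV3-34, so a CDR3 alone does not always tell which IGLV gene was used. To see how close the genes are over the rest of the V region, common V sequences were taken for each gene, those found in 1 animal with at least 3 different heavy CDR3s in unswitched cells. There were 92 such sequences for 41 genes. Of these, 29 were common in 1 animal alone and 5 in all 6, and 0 were listed under more than 1 gene. The closest common sequences of IGLV3-34 and IGLV3-36 differed at 1 base of 258, those of IGLV2-13 and IGLV2-23 at 1 base of 267, those of IGLV3-36 and IGLV3-44 at 4 bases and those of IGLV6-110 and IGLV6-112 at 4 bases. All other pairs of genes differed at 7 or more. The closest sequence was carried by 41 of 324 IGLV3-34 cells and by 6 of 200 IGLV3-36 cells, the latter in 1 animal. For IGLV2-13 it was 8 of 141 cells and for IGLV2-23 8 of 247, each in 2 animals. These sequences thus do not stand for all cells of their genes. The stretches around the single differing bases are shown with that base in capitals. It lies at position 50 of the V region in the IGLV3 pair and at position 33 in the IGLV2 pair. Positions are counted from 1 at the start of the first framework region.
IGLV3-34: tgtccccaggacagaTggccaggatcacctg
IGLV3-36: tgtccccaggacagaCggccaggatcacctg
IGLV2-13: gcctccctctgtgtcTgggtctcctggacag
IGLV2-23: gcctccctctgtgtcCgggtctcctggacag

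Cells of such close genes could be split between names, so results on these 7 genes are also given for the genes summed, as 3 groups named by their members. The sums were added after the values of the single genes had been seen, and their tests are no independent evidence.

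Usage was spread over many genes, with 48 IGLV genes of 10 families. IGLV3 made up 25.8% ± 4.01 of lambda cells, IGLV1 25.6% ± 2.56 and IGLV2 23.5% ± 3.19 (SD, n = 6 animals), and these 3 do not differ beyond their spread. IGLV5 followed at 7.33% ± 0.708, then IGLV8 at 4.75% ± 1.86, IGLV7 at 3.69% ± 1.03, IGLV11 at 2.78% ± 0.772, IGLV6 at 2.69% ± 0.571, IGLV10 at 2.19% ± 0.928 and IGLV4 at 1.72% ± 0.802. The families IGLV4, IGLV8, IGLV10 and IGLV11 were each a single gene. The 10 most used genes together took 46.9% ± 2.90 of lambda cells, 33 genes had a mean share over 1%, and 36 were found in all 6 animals.

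IGLV3-34 was the gene with the highest mean, 6.42% ± 2.83 of lambda cells. It took 2.75% of lambda cells in male 1 (34 of 1237, 95% Wilson interval 1.97 to 3.82) and 3.20% in male 2 (38 of 1189, 2.34 to 4.36). The females had 8.27% (102 of 1233, 6.86 to 9.94), 6.98% (44 of 630, 5.24 to 9.25), 7.54% (82 of 1087, 6.12 to 9.27) and 9.76% (24 of 246, 6.64 to 14.1). Intervals of this kind cover counting error only. IGLV2-38 averaged 6.38% ± 1.75, with 8.66% in male 2 as its highest and 4.07% in female 4 as its lowest value, and so did not differ from IGLV3-34 beyond the spread between animals. The next 8 genes, from IGLV2-32 at 4.80% ± 0.694 to IGLV2-46 at 3.71% ± 1.10, were within the spread of their neighbours.

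**Figure D1:**
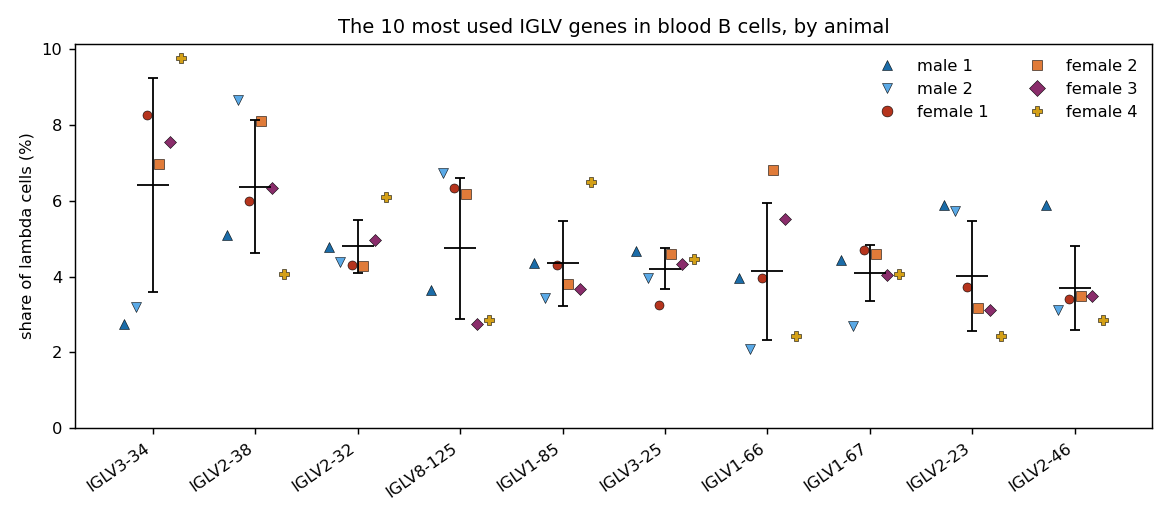
Share of lambda cells (percent, vertical axis) that used each of the 10 most used IGLV genes (horizontal axis, by mean) in each animal, with the mean and SD of 6 animals as lines. IGLV3-34 sits at 2.75% and 3.20% in the males, below all 4 females at 6.98% to 9.76%, while IGLV3-25 lies within 3.24% to 4.69% in all 6 animals.

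A few genes were common in some animals and missing in others. IGLV2-19 averaged 1.70% ± 0.986 of lambda cells, yet 0 of 1087 lambda cells of female 3 used it, which allows a share of up to 0.276%. IGLV3-35 reached 1.63% of lambda cells in female 4 (4 of the 11 cells that used it in all), but had 0 cells in male 2, female 2 and female 3, which allows up to 0.252%, 0.476% and 0.276%. Whether these animals lack the gene was not tested.

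Lambda joining and constant genes followed fixed partners. IGLJ1 took 27.9% ± 1.47 of lambda cells, IGLJ2A 24.1% ± 1.63, IGLJ3 23.1% ± 2.45, IGLJ2 16.4% ± 0.884 and IGLJ6 8.41% ± 2.75. IGLJ1 was read with IGLC1 in 1580 of 1583 cells. IGLC2 followed IGLJ2 in all 910 cells, IGLJ3 in all 1277 and IGLJ2A in 1343 of 1344. IGLC2 was the constant gene of 63.7% ± 3.75 of lambda cells, IGLC1 of 32.6% ± 4.14 and IGLC6 of 3.68% ± 2.26. IGLJ2, IGLJ2A and IGLJ3 thus had IGLC2 in common, unlike the layout above of an own IGLC gene for each IGLJ gene. Whether the name IGLC2 covers more than 1 constant gene was not tested. The most frequent sequences of the fourth framework region, by joining gene, with the 10 positions that vary between them in capitals, show how close the genes are.
IGLJ1: ggTGCTggGaccCGgCtCaccgtcctAg
IGLJ2: ggAGGAggGaccCGgCtGaccgtcctAg
IGLJ2A: ggCGGAggGaccCGgCtGaccgtcctAg
IGLJ3: ggAGGAggGaccCGgCtGaccgtcctAg
IGLJ6: ggAAGTggCaccAAgTtGaccgtcctCg

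IGLJ2 and IGLJ3 were identical over this stretch. What told them apart in the authors' pipeline was not tested. IGLJ6 was the exception to fixed partners, with IGLC6 in 226 cells and IGLC1 in 280. Its share with IGLC6 differed widely between animals, at 52.4% in male 1 (66 of 126, 95% Wilson interval 43.7 to 60.9), 87.1% in male 2 (74 of 85, 78.3 to 92.6), 31.7% in female 1 (32 of 101, 23.4 to 41.3), 53.1% in female 2 (34 of 64, 41.1 to 64.8) and 14.9% in female 3 (18 of 121, 9.62 to 22.3). Female 4 had 2 of 9 such cells with IGLC6 (22.2%, 6.32 to 54.7). The interval of male 2 overlaps that of no other animal, and that of female 3 overlaps only that of female 4. The most frequent IGLJ6 framework sequence was the same whether IGLC1 or IGLC6 followed. The build and the immunoglobulin reference are not given in the sources used here, and a part of the reference in this pattern was not tested.

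**Figure D2:**
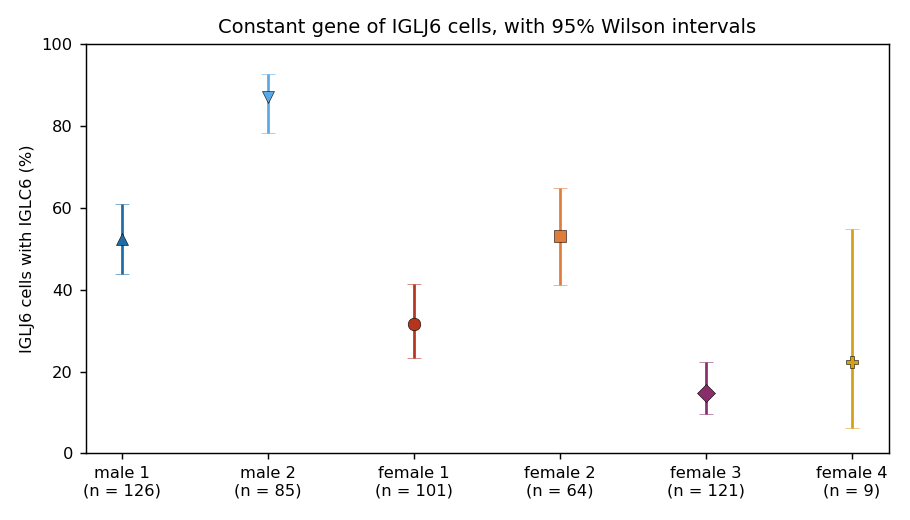
Share of IGLJ6 lambda cells read with IGLC6 rather than IGLC1 (percent, vertical axis) in each animal, with 95% Wilson intervals as bars and the number of IGLJ6 cells under each name. Male 2 is highest at 87.1% and female 3 lowest at 14.9%.

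Between subtypes, most differences in lambda usage lay in M-MZL BC, Activated B cells and M-MBC 2, each set against Naive B cells 1. The close genes IGLV3-36 and IGLV3-44 were far less used in all 3 subtypes and IGLV3-34 in M-MZL BC and Activated B cells, IGLV1-85 and IGLV6-110 were less used in at least 2 of them, and IGLV10-114, IGLV7-80, IGLV7-88 and IGLV2-13 were more used in 1 or 2. Numbers of lambda cells per IGLV gene were summed per animal and subtype and tested with edgeR's quasi-likelihood test, with the animal as a block. Over 8 subtypes and 38 genes, 27 of 304 tests were called at an adjusted p under 0.05, a background of 8.88%, and 8 of the calls were higher and 19 lower than in Naive B cells 1. All 8 comparisons share the same Naive B cells 1 sums, so their calls are not independent of each other. The calls fell on 16 genes, with 8 of 38 genes called in M-MZL BC (21.1%), 8 in Activated B cells (21.1%) and 6 in M-MBC 2 (15.8%), against 3 in CD11c+ MBC 2 (7.89%), 1 each in M-MBC 1 and C-MBC 1 (2.63%) and 0 in C-MBC 2 and CD11c+ MBC 1, which had 1 gene each at an unadjusted p under 0.05.

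IGLV3-36 showed the steadiest of these differences. In M-MZL BC it took 0.400%, 1.08%, 1.10%, 0%, 1.64% and 0% of lambda cells in male 1, male 2 and females 1 to 4 (4 of 589 cells), against 5.62%, 7.56%, 3.45%, 6.25%, 7.86% and 4.08% in Naive B cells 1 (47 of 774 cells). The groups do not overlap, and the log2 difference was -2.86 ± 0.60 (SE, edgeR adjusted p = 0.000505). In M-MBC 2 the gene averaged 0.377% ± 0.641 (3 of 422 cells), a log2 difference of -2.96 ± 0.67 (edgeR adjusted p = 0.000777), lower in 6 of 6 animals. In Activated B cells 1 of 335 cells used it, in male 1, a log2 difference of -3.96 ± 0.85 (edgeR adjusted p = 0.000505). A share of 0 in 1 animal allows up to 1.20% to 6.98% in M-MZL BC, 2.52% to 9.38% in Activated B cells and 2.13% to 18.8% in M-MBC 2, by the animal's cell number.

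IGLV3-44, which differs little from IGLV3-36, behaved alike. It averaged 0.573% ± 0.799 of lambda cells in M-MZL BC (3 of 589), 0.118% ± 0.290 in M-MBC 2 (1 of 422), 1.15% ± 0.938 in M-MBC 1 (11 of 853) and 5.08% ± 3.51 in Naive B cells 1 (37 of 774). These were log2 differences of -3.02 ± 0.70, -3.47 ± 0.89 and -1.67 ± 0.53 (edgeR adjusted p = 0.000824, 0.00353 and 0.0254), each lower in 6 of 6 animals. In Activated B cells it fell by 2.72 ± 0.83 on the log2 scale, lower in 4 of 5 animals (edgeR adjusted p = 0.0186). IGLV3-34 averaged 2.42% ± 2.77 in M-MZL BC and 0.571% ± 1.28 in Activated B cells, against 6.40% ± 2.69 in Naive B cells 1, log2 differences of -1.53 ± 0.45 and -2.32 ± 0.65 (edgeR adjusted p = 0.0141 and 0.00903). In M-MBC 2 it was at 3.77% ± 4.92 and was not called (-1.02 ± 0.45, edgeR adjusted p = 0.162). There it was lower in 5 of 6 animals, with female 4 at 12.5% in M-MBC 2 (2 of 16 cells) against 4.08% in Naive B cells 1.

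Summed over IGLV3-34, IGLV3-36 and IGLV3-44, the share in M-MZL BC was 2.40%, 2.15%, 2.20%, 2.33%, 3.28% and 9.80% in male 1, male 2 and females 1 to 4. In Naive B cells 1 it was 13.7%, 15.7%, 12.9%, 18.8%, 24.3% and 18.4% in the same order. M-MZL BC was lower in every animal, with a log2 difference of -2.36 ± 0.33 (edgeR adjusted p = 4.45e-10, 7.72% of 272 tests called with close genes summed). The sum was 1.58% ± 2.24 in Activated B cells (n = 5 animals), 4.26% ± 4.94 in M-MBC 2 and 9.83% ± 1.37 in M-MBC 1, against 17.3% ± 4.17 in Naive B cells 1. The log2 differences were -3.04 ± 0.46, -2.02 ± 0.35 and -0.75 ± 0.23 (edgeR adjusted p = 7.83e-09, 6.44e-07 and 0.0252). The first 2 and that of M-MZL BC stayed called with each animal left out in turn, and that of M-MBC 1 in 2 of 6 such fits.

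The other 4 memory subtypes did not pass. The summed share was 16.2% ± 2.18 in C-MBC 1, 17.2% ± 8.04 in C-MBC 2, 19.8% ± 7.78 in CD11c+ MBC 2 and 11.96% ± 2.83 in CD11c+ MBC 1. Their log2 differences from Naive B cells 1 were -0.09 ± 0.23, -0.09 ± 0.29, 0.00 ± 0.25 and -0.45 ± 0.21, and edgeR called none of these 4 (adjusted p = 0.913, 0.932, 0.995 and 0.237). CD11c+ MBC 1 was lower in 5 of 6 animals.

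**Figure D3:**
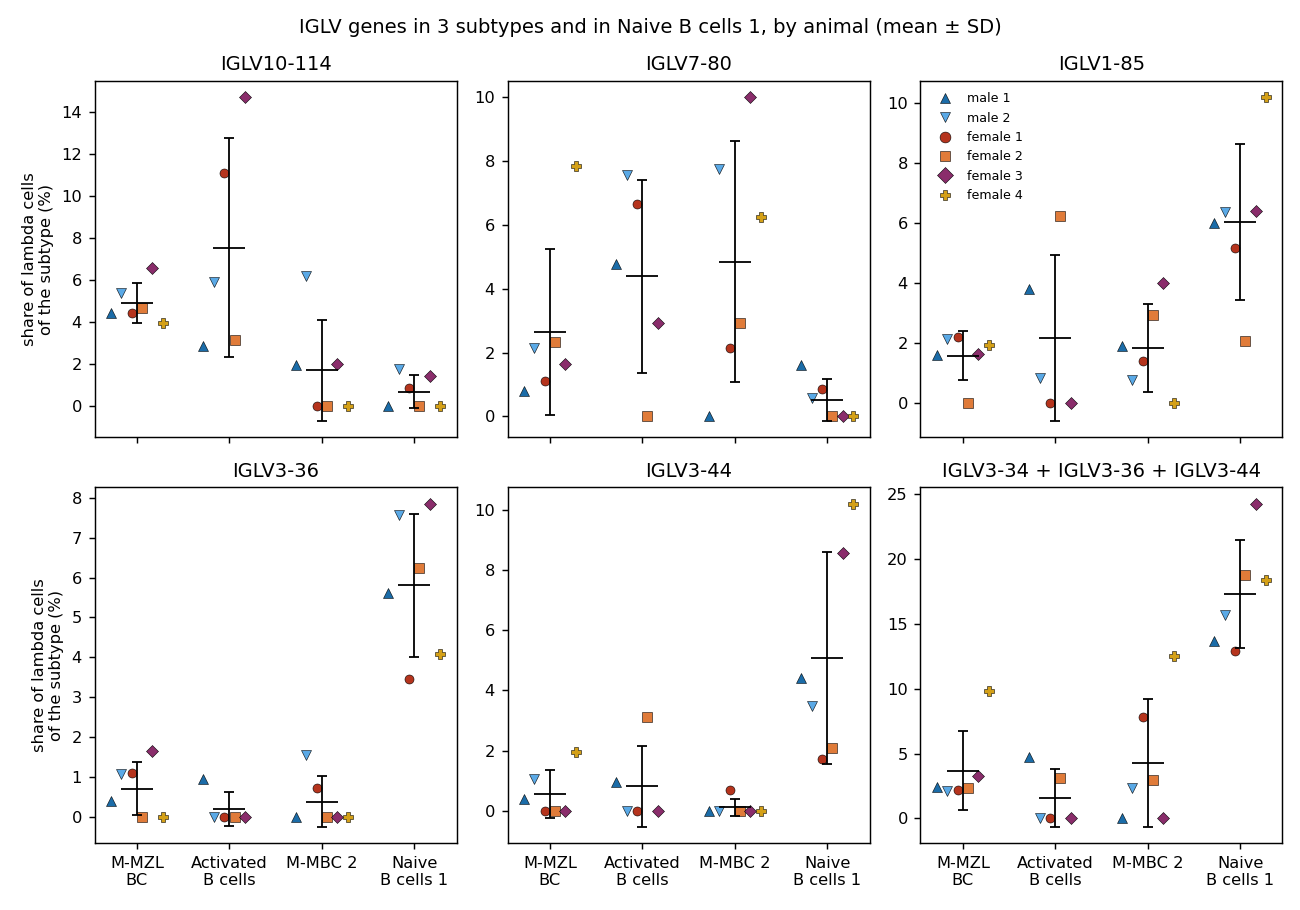
Share of the lambda cells of M-MZL BC, Activated B cells, M-MBC 2 and Naive B cells 1 (percent, vertical axis) that used 5 IGLV genes and the sum of 3 close IGLV3 genes, 1 panel each, with 1 point per animal and mean ± SD as lines. The summed IGLV3 share is 12.9% to 24.3% in Naive B cells 1 and 2.15% to 9.80% in M-MZL BC, and Activated B cells have no point for female 4, which had under 10 such lambda cells.

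IGLV10-114, the sole member of its family here, was higher in M-MZL BC and Activated B cells. In M-MZL BC it took 4.40%, 5.38%, 4.40%, 4.65%, 6.56% and 3.92% of lambda cells in male 1, male 2 and females 1 to 4 (28 of 589 cells), against 0%, 1.74%, 0.862%, 0%, 1.43% and 0% in Naive B cells 1 (6 of 774 cells). The groups do not overlap, and the log2 difference was 2.64 ± 0.61 (edgeR adjusted p = 0.000824). In Activated B cells it took 7.54% ± 5.20 (21 of 335 cells), a log2 difference of 2.92 ± 0.65 that was higher in 5 of 5 animals (edgeR adjusted p = 0.000777). Its share was 2.88% ± 1.57 in M-MBC 1, 1.69% ± 2.41 in M-MBC 2 and 1.52% ± 1.82 in C-MBC 1, none of them called. In M-MBC 1 it was higher in 6 of 6 animals (1.59 ± 0.64, edgeR adjusted p = 0.119) and was called in unswitched cells alone (1.83, edgeR adjusted p = 0.0334).

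IGLV7-80 rose in Activated B cells and M-MBC 2. It took 4.39% ± 3.03 of lambda cells in Activated B cells (18 of 335), 4.85% ± 3.78 in M-MBC 2 (20 of 422) and 0.508% ± 0.650 in Naive B cells 1 (6 of 774), log2 differences of 2.64 ± 0.67 and 2.44 ± 0.65 (edgeR adjusted p = 0.00333 and 0.00534). The rise was seen in 4 of 5 and 5 of 6 animals, and the call was lost without male 2 in both and without female 3 in M-MBC 2. Its relative IGLV7-88 was called in Activated B cells, at 3.94% ± 3.48 against 0.603% ± 0.805 in Naive B cells 1, a log2 difference of 3.12 ± 0.77 (edgeR adjusted p = 0.0021) that was not called without male 2 (adjusted p = 0.277).

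IGLV2-13 took 5.22% ± 2.19 of lambda cells in M-MZL BC and 1.40% ± 2.72 in Naive B cells 1, a log2 difference of 1.79 ± 0.55 (edgeR adjusted p = 0.0186), higher in 5 of 6 animals. Summed with its near copy IGLV2-23 it took 12.2% ± 5.37 in M-MZL BC, 11.5% ± 5.38 in Activated B cells and 5.51% ± 2.64 in Naive B cells 1. The log2 differences of the sum were 1.20 ± 0.31 and 1.07 ± 0.35 (edgeR adjusted p = 0.00302 and 0.037). The call of the sum in M-MZL BC was lost without male 2, and that in Activated B cells was made in 2 of 6 fits that left out an animal. Female 4 went the other way in M-MZL BC, at 1.96% against 8.16% in Naive B cells 1. IGLV2-38 was higher in M-MBC 2, at 10.3% ± 4.30 against 4.91% ± 2.04 in Naive B cells 1, a log2 difference of 0.99 ± 0.34 in 6 of 6 animals (edgeR adjusted p = 0.0414).

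IGLV1-85 was lower in M-MZL BC, at 1.59% ± 0.819 of lambda cells against 6.05% ± 2.61 in Naive B cells 1, a log2 difference of -1.83 ± 0.49 in 6 of 6 animals (edgeR adjusted p = 0.00534). It was also lower in M-MBC 2, at 1.84% ± 1.45, in 5 of 6 animals (-1.73 ± 0.55, edgeR adjusted p = 0.0254). IGLV6-110 was used by 2 of 589 lambda cells in M-MZL BC, 0 of 422 in M-MBC 2 and 0 of 335 in Activated B cells, against 18 of 774 in Naive B cells 1. The counts of 0 allow shares of up to 0.711% in M-MBC 2 and 0.896% in Activated B cells (edgeR adjusted p = 0.00924 and 0.0186). With 3 counts over the group as the floor, the gene was 3.27-fold and 2.60-fold lower there. These folds pool the cells of all animals and leave out the counting error of Naive B cells 1, so they are no lower bounds. Summed with IGLV6-112 it took 1.02% ± 0.882 of lambda cells in M-MZL BC, 1.36% ± 2.51 in M-MBC 2 and 0.571% ± 1.28 in Activated B cells (3 of 335), against 4.02% ± 1.79 in Naive B cells 1. The sum was called in M-MZL BC (-1.75 ± 0.59, edgeR adjusted p = 0.0421) and M-MBC 2 (-2.68 ± 0.79, edgeR adjusted p = 0.0167), in 2 and 4 of 6 fits that left out an animal. In Activated B cells it was not called (-2.09 ± 0.75, edgeR adjusted p = 0.0628). IGLV3-48 had 1 of 589 cells in M-MZL BC and 16 of 774 in Naive B cells 1 (-2.93 ± 0.94, edgeR adjusted p = 0.0254).

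The remaining calls were single ones. IGLV3-22 took 4.77% ± 1.14 in CD11c+ MBC 2 and 1.67% ± 1.56 in Naive B cells 1, a log2 difference of 1.65 ± 0.53 in 6 of 6 animals (edgeR adjusted p = 0.0254). IGLV11-117 was lower in CD11c+ MBC 2 at 1.17% ± 1.10 against 3.67% ± 2.31 (-1.63 ± 0.57, edgeR adjusted p = 0.0462). The genes with 0 cells were IGLV2-11 in CD11c+ MBC 2 (0 of 724, edgeR adjusted p = 0.0254), IGLV7-76 in C-MBC 1 (0 of 589, edgeR adjusted p = 0.0301) and IGLV5-62 in Activated B cells (0 of 335, edgeR adjusted p = 0.0404). At the same floor they were 2.18-fold, 2.28-fold and 2.16-fold lower, from only 7, 9 and 15 of 774 cells in Naive B cells 1.

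Subtypes differ in their share of switched cells, so the fits were repeated on unswitched cells alone, an alternative added after the values were seen. All 26 calls that could be fitted there kept their direction and 23 of the 27 were called again. Of the 1180 switched lambda cells, 1136 were in the 6 memory subtypes. Outside these subtypes the refit thus removed few switched cells, and for M-MZL BC and Activated B cells it says little about class. Of the 27 calls, 15 were also made by DESeq2, 26 with 1 cell per clonotype and 6 in every fit that left out an animal. Of the others, in M-MZL BC, IGLV10-114 and IGLV1-85 were lost without male 1, IGLV2-13 and IGLV3-48 without male 1, male 2 or female 3, IGLV3-34 without male 2, female 1 or female 3, and IGLV6-110 without any animal but male 1. In Activated B cells, IGLV3-34 was lost without male 2 or female 3, IGLV3-44 without male 1, male 2 or female 3, IGLV6-110 without male 1 or male 2, and IGLV5-62 without any animal but female 2. In M-MBC 2, IGLV6-110 was lost without male 2, IGLV1-85 without male 1, male 2, female 1 or female 4, and IGLV2-38 without male 1, male 2, female 3 or female 4. In M-MBC 1, IGLV3-44 was lost without male 1, female 3 or female 4. The 4 calls in CD11c+ MBC 2 and C-MBC 1 were lost in 4 or 5 of 6 such fits each. The 6 calls that held were IGLV3-36 in M-MZL BC, Activated B cells and M-MBC 2, IGLV3-44 in M-MZL BC and M-MBC 2, and IGLV10-114 in Activated B cells. The number of calls was 9 without male 2, 13 without male 1 and 13 without female 3, and in the 4 females alone 2 calls were made while 26 of 26 directions were the same.

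Switched cells used IGLV3-34, IGLV3-36 and IGLV3-44, summed, more than unswitched cells. Gene by gene, edgeR called 0 of 38 genes between switched and unswitched lambda cells, a background of 0%, with 9 genes at an unadjusted p under 0.05 and a smallest adjusted p of 0.0688, while DESeq2 called 1. IGLV3-34, that 1 gene, took 8.33% of switched and 4.58% of unswitched lambda cells on average, higher in 5 of 6 animals, a log2 difference of 0.85 ± 0.26 (edgeR adjusted p = 0.0688). With close genes summed, 5 of 34 were called (14.7%), and the sum of IGLV3-34, IGLV3-36 and IGLV3-44 led them. It was 11.3%, 17.5%, 16.7%, 17.8%, 17.9% and 19.5% of switched lambda cells in male 1, male 2 and females 1 to 4, against 6.51%, 7.73%, 8.71%, 10.5%, 12.8% and 11.97% of unswitched cells. The switched share was higher in 6 of 6 animals, by 0.79 ± 0.14 on the log2 scale (edgeR adjusted p = 0.000412), and stayed called with each animal left out. It averaged 16.8% ± 2.86, which is not above the 17.3% ± 4.17 of Naive B cells 1. The sum was 3.69% ± 3.02 in M-MZL BC, 4.26% ± 4.94 in M-MBC 2 and 9.83% ± 1.37 in M-MBC 1. The part of subtype in the difference between classes was not tested.

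The same held within the 6 memory subtypes, where the sum took 16.9% ± 2.56 of switched and 8.87% ± 2.51 of unswitched lambda cells. This was a log2 difference of 0.85 ± 0.15 in 6 of 6 animals (edgeR adjusted p = 2.32e-06, 6.45% of 31 called), and it too stayed called with each animal left out. The memory subtypes themselves differ in this sum, from 4.26% ± 4.94 in M-MBC 2 to 19.8% ± 7.78 in CD11c+ MBC 2. The part of subtype was not tested here either. The sum of IGLV6-110 and IGLV6-112 was higher in switched cells as well, at 3.95% ± 1.55 against 2.13% ± 0.566 (0.83 ± 0.27, edgeR adjusted p = 0.0377), but was called in only 2 of 6 fits that left out an animal and not within memory subtypes. In Naive B cells 1 this sum was 4.02%. Lower in switched cells were IGLV8-125 (-0.82 ± 0.24), IGLV7-80 (-1.31 ± 0.41) and IGLV7-88 (-1.41 ± 0.44), each at an edgeR adjusted p of 0.0377 in that fit. None of them is a summed gene, and none was called gene by gene. There IGLV8-125 was at an edgeR adjusted p of 0.0688 and was called in 1 of 6 fits that left out an animal. Within memory subtypes IGLV8-125 was called (-0.93 ± 0.28, edgeR adjusted p = 0.0149), and IGLV7-80 (-1.46 ± 0.55, edgeR adjusted p = 0.0885) and IGLV7-88 (-1.41 ± 0.57, edgeR adjusted p = 0.109) were not. Gene by gene within memory subtypes, 2 of 35 genes were called (5.71%), IGLV3-36 at 5.41% ± 2.91 of switched against 2.61% ± 1.68 of unswitched cells and IGLV8-125 at 2.90% ± 1.89 against 6.19% ± 2.40 (both edgeR adjusted p = 0.0441). Neither of the 2 calls was made with DESeq2, TMM scaling or 1 cell per clonotype. Between IgA and IgG lambda cells edgeR called 0 of 24 genes (0%), with 0 at an unadjusted p under 0.05, in 5 animals with 11 to 26 IgA cells each.

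Lambda cells were slightly more frequent among switched than among unswitched cells. They made up 56.1%, 57.5%, 60.0%, 51.4%, 43.8% and 50.9% of switched cells in male 1, male 2 and females 1 to 4, against 53.7%, 55.8%, 48.2%, 44.6%, 43.4% and 50.7% of unswitched cells. The difference was 3.86 ± 4.57 percentage points (SD), positive in 6 of 6 animals, with p = 0.03125 in an exact two-sided sign-flip permutation test, the smallest p that 6 animals allow. With 1 cell per clonotype it was 3.76 points and did not pass (exact permutation p = 0.09375), and without female 1 it was 2.27 points. Female 1 and female 2 moved most, and in female 3 and female 4 the difference was under 1 point. Within memory subtypes alone it was 3.70 ± 6.10 points, positive in 3 of 6 animals (exact permutation p = 0.3125).

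Lambda CDR3 length differed more between IGLV genes than between groups of cells. By gene, over genes with at least 20 cells and counting both conserved ends, the mean ran from 10.9 amino acids in IGLV3-14 to 13.1 in IGLV1-85, IGLV3-29 and IGLV1-64. Over all genes CDR3s averaged 12.41 ± 0.05 amino acids in switched and 12.31 ± 0.04 in unswitched cells, 0.0957 ± 0.0507 longer in 6 of 6 animals (exact sign-flip permutation p = 0.03125). No subtype passed against Naive B cells 1, which averaged 12.38 ± 0.11: the largest of 7 tested differences was -0.15 ± 0.12 in M-MBC 2 (exact permutation, adjusted p = 0.4375), and the other 6 were between -0.08 and 0.04. Activated B cells, with 5 animals, cannot reach 0.05 (smallest possible p 0.0625) and were not tested. Lambda CDR3s were longer than kappa CDR3s, at 12.35 ± 0.04 against 10.94 ± 0.02 amino acids, a difference of 1.41 ± 0.04 in 6 of 6 animals (exact permutation p = 0.03125). Joining gene shares did not pass between switched and unswitched cells for any of 5 IGLJ genes (smallest adjusted exact permutation p = 0.703), with IGLJ2A the farthest apart at 22.8% ± 2.67 and 24.9% ± 2.74.

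How far lambda V regions had drifted from the common sequence of their gene in the same animal was measured as differing bases per 100. It covered 92.9% of lambda cells, those with a common sequence of matching length. Switched lambda cells had 2.58, 2.18, 3.01, 3.28, 2.91 and 4.26 differences per 100 bases in male 1, male 2 and females 1 to 4, against 0.590, 0.601, 0.711, 0.867, 0.568 and 0.933 in unswitched cells. The groups do not overlap, and the difference was 2.33 ± 0.579 (exact sign-flip permutation p = 0.03125). The common sequences were themselves taken from unswitched cells, which lowers the values of that group. By subtype, divergence ran from 0.0872 ± 0.113 in Naive B cells 1 and 0.478 ± 0.219 in M-MBC 1 over 1.07 ± 0.736 in CD11c+ MBC 1, 1.19 ± 0.236 in M-MZL BC, 1.22 ± 0.268 in M-MBC 2 (n = 5) and 1.67 ± 0.394 in Activated B cells (n = 5) to 3.36 ± 0.480 in C-MBC 1, 3.60 ± 1.54 in CD11c+ MBC 2 and 3.78 ± 0.976 in C-MBC 2. Neighbours in this order from CD11c+ MBC 1 to M-MBC 2, and the last 3, do not differ beyond their spread.

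Many lambda CDR3s were public, with the same nucleotide sequence in more than 1 animal. The named lambda cells held 3320 different CDR3s, of which 394 were found in 2 or more animals. The 25 found in all 6 animals were carried by 612 cells. Over all named lambda cells with 1 heavy chain there were 4721 different heavy CDR3s, and 0 of them were found in 2 or more animals. A cell is called shared here when any lambda cell of another animal had its lambda CDR3. Shared cells made up 24.5%, 29.9%, 19.9%, 18.5%, 21.8% and 12.2% of switched lambda cells in male 1, male 2 and females 1 to 4, against 59.7%, 59.3%, 56.3%, 61.2%, 67.5% and 57.7% of unswitched cells. The groups are far apart, with a difference of -39.2 ± 6.57 points in 6 of 6 animals (exact sign-flip permutation p = 0.03125).

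Sharing fell where divergence was higher, with C-MBC 1 and CD11c+ MBC 2 as the exception to a fully reversed order. It was 82.2% ± 5.05 in Naive B cells 1, 66.8% ± 4.63 in M-MBC 1, 53.1% ± 17.9 in CD11c+ MBC 1, 43.0% ± 7.49 in M-MZL BC, 36.4% ± 16.0 in M-MBC 2, 30.8% ± 9.76 in Activated B cells, 21.1% ± 13.4 in CD11c+ MBC 2, 13.2% ± 5.47 in C-MBC 1 and 11.6% ± 6.23 in C-MBC 2. By class it was 76.4% ± 6.48 in IgD, 56.6% ± 4.01 in IgM, 21.8% ± 6.31 in IgG and 10.8% ± 9.05 in IgA cells (n = 5). These values are a description, since subtypes and classes overlap. Sharing needs a CDR3 identical at every base, and the CDR3 begins in the V gene whose other bases give the divergence. Sharing and divergence are thus not independent measures.

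Divergence was set beside sharing within each class. Among cells whose V region matched the common sequence, 76.5% ± 13.7 of switched cells (142 cells, n = 5 animals) and 80.8% ± 2.18 of unswitched cells (1938 cells, n = 6) had a shared CDR3. Among cells that differed from it, the shares were 13.7% ± 4.89 of 931 switched and 38.3% ± 8.17 of 1386 unswitched cells. Of switched cells 11.8% ± 5.93 matched the common sequence, against 57.0% ± 6.31 of unswitched cells. Among matching cells the ranges of the animals overlap, and among differing cells they do not (4.55% to 18.8% in switched against 28.7% to 48.5% in unswitched cells). Differing cells were taken at any number of differing bases, so the classes were not matched for divergence there. These values were not tested.

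**Figure D4:**
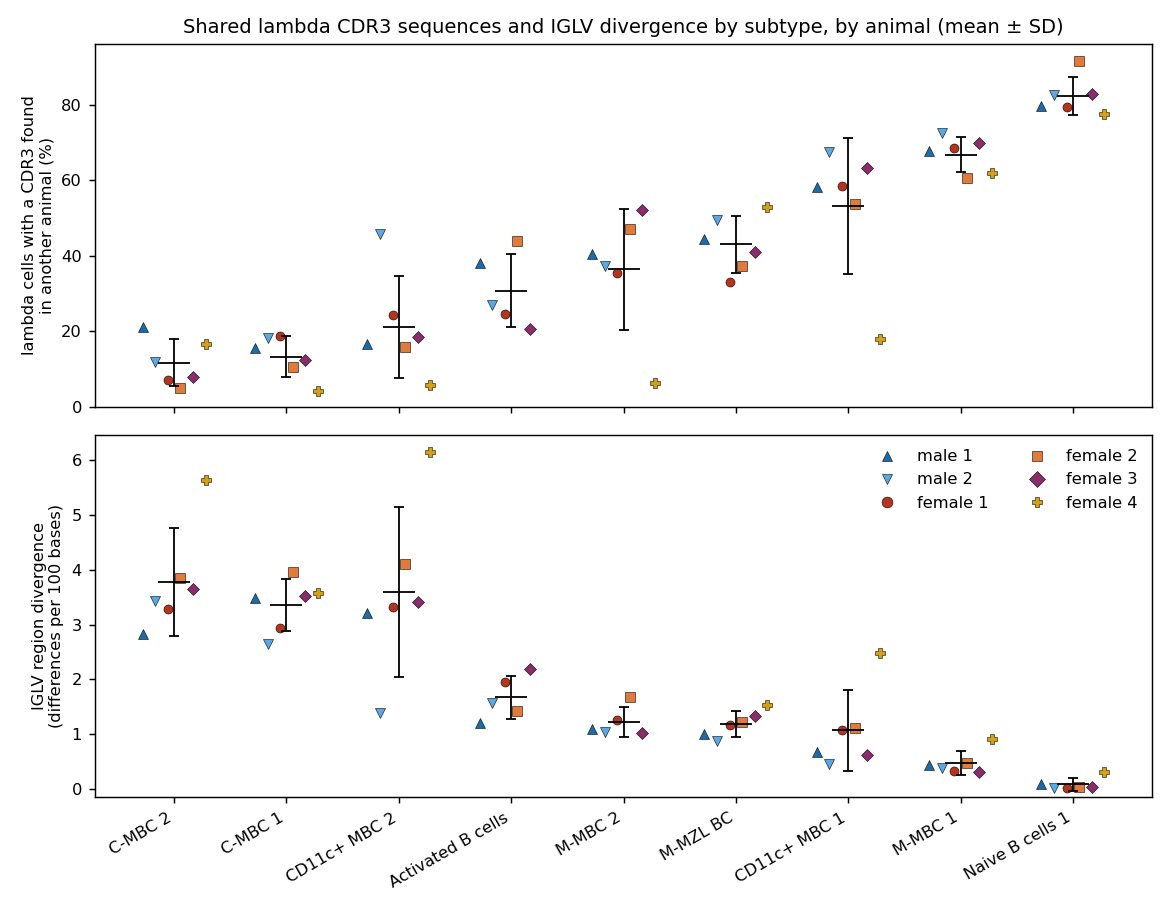
Upper panel, share of lambda cells (percent) whose lambda CDR3 was also found in another animal, and lower panel, differences per 100 bases between a cell's IGLV region and the common sequence of its gene, both by subtype with 1 point per animal and mean ± SD as lines. Sharing is 11.6% in C-MBC 2 and 82.2% in Naive B cells 1 on average, where divergence is 3.78 and 0.0872.

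Against kappa cells, sharing was not higher in lambda cells. A comparison added after the data were seen gave 45.4% ± 5.91 of lambda and 48.8% ± 6.32 of kappa cells with a light CDR3 found in another animal, a difference of -3.48 ± 5.17 points that was negative in 4 of 6 animals (exact sign-flip permutation p = 0.1875). In Naive B cells 1 alone the shares were 82.2% ± 5.05 of lambda and 77.1% ± 6.39 of kappa cells, a difference of 5.14 ± 11.1 in the other direction (exact permutation p = 0.3125).

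Lambda genes paired unevenly with heavy V families. IGHV4 is the most used heavy family in these cells and IGHV3 the next. Between lambda cells with an IGHV4 and those with an IGHV3 heavy chain, 4 of 37 IGLV genes were called (10.8%), 1 higher and 3 lower with IGHV4. IGLV1-66 took 6.24%, 3.41%, 6.14%, 9.96%, 6.90% and 2.94% of IGHV4 lambda cells in male 1, male 2 and females 1 to 4 (136 of 2283), against 1.12%, 1.10%, 2.39%, 4.86%, 3.92% and 0% of IGHV3 lambda cells (36 of 1621). It was higher in every animal, by 1.41 ± 0.28 on the log2 scale (edgeR adjusted p = 0.00438).

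IGLV3-16 went the other way, at 0.938% ± 0.466 of IGHV4 and 3.44% ± 1.24 of IGHV3 lambda cells, lower in 6 of 6 animals (-1.69 ± 0.37, edgeR adjusted p = 0.00558). IGLV6-112 took 0.280% ± 0.251 and 1.85% ± 0.662, lower in 6 of 6 animals (-2.46 ± 0.56, edgeR adjusted p = 0.00558), and IGLV3-22 took 1.17% ± 0.785 and 3.45% ± 1.19, lower in 5 of 6 (-1.32 ± 0.38, edgeR adjusted p = 0.0276). The calls of IGLV1-66, IGLV3-16 and IGLV6-112 held with each animal left out, and that of IGLV3-22 in 2 of 6 such fits. Summed with IGLV6-110, which lies 4 bases away, IGLV6-112 gave 1.70% ± 0.551 against 2.92% ± 0.309 and was no longer called (-0.90 ± 0.35, edgeR adjusted p = 0.0847), with 3 of 33 called (9.09%). In unswitched cells alone IGLV1-66 (1.49), IGLV3-16 (-1.35) and IGLV6-112 (-2.52 on the log2 scale) were called again and IGLV3-22 was not (-0.84). In Naive B cells 1 alone 11 genes had enough cells to be tested, none of these 4 among them, and 0 were called.

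By lambda family, the share of IGHV4 heavy chains was highest in IGLV11 cells at 57.2% ± 4.37 (n = 5 animals) and IGLV1 cells at 56.3% ± 1.93 and lowest in IGLV6 cells at 30.3% ± 9.74 (n = 5). IGLV2 cells had 50.4% ± 3.61, IGLV8 46.6% ± 9.35 (n = 5), IGLV3 42.1% ± 4.68, IGLV10 40.6% ± 7.24 (n = 4), IGLV5 40.2% ± 3.62, IGLV7 39.6% ± 16.6 and IGLV4 38.9% ± 6.73 (n = 4). These family shares were not tested.

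Set against kappa cells, lambda cells used 3 small heavy families more. IGHV1 heavy chains made up 7.75% ± 2.20 of lambda and 4.98% ± 2.49 of kappa cells, IGHV2 6.11% ± 0.727 and 4.97% ± 1.09, and IGHV5 3.83% ± 1.81 and 1.95% ± 0.702. IGHV3 was lower in lambda cells, at 33.4% ± 1.83 against 36.8% ± 2.85. Each of these 4 differences went one way in 6 of 6 animals (exact sign-flip permutation p = 0.03125, adjusted p = 0.0391 over 5 families). IGHV4 was at 47.5% ± 1.70 of lambda and 50.9% ± 2.42 of kappa cells, lower in 5 of 6 animals (exact permutation, adjusted p = 0.0625). In Naive B cells 1 alone none of the 5 passed, and the IGHV2 difference was -0.36 points.

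**Figure D5:**
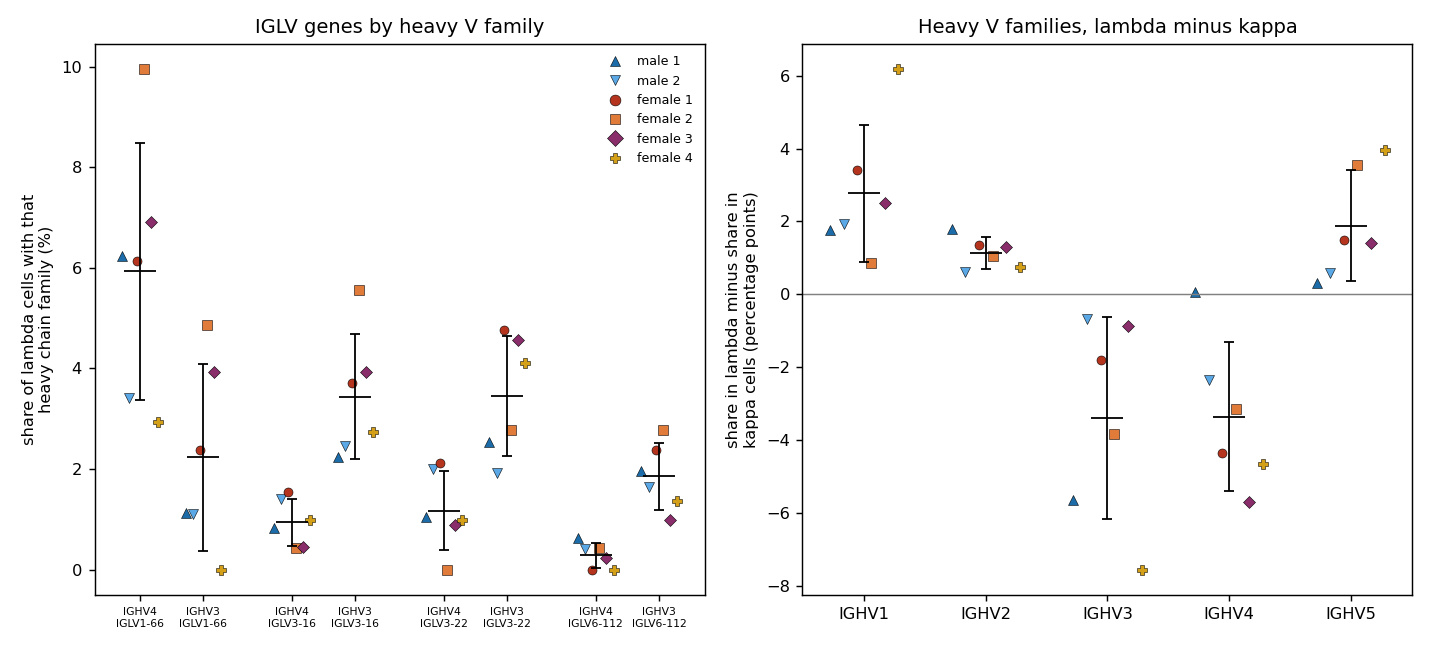
Left, share of the lambda cells with an IGHV4 or an IGHV3 heavy chain (percent, vertical axis) that used 4 IGLV genes. Right, share of each heavy V family in lambda cells minus that in kappa cells (percentage points). Points are animals and lines mean ± SD of 6 animals. IGLV1-66 is higher with IGHV4 in every animal, and IGHV1, IGHV2 and IGHV5 lie above 0 in all 6.

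Males and females differed in 2 of 38 IGLV genes (5.26%), and both have a near copy. IGLV3-34 took 2.75% and 3.20% of lambda cells in the males and 6.98% to 9.76% in the females, a log2 difference of -1.43 ± 0.29 (edgeR adjusted p = 0.00237), and IGLV2-23 took 5.90% and 5.72% in the males and 2.44% to 3.73% in the females, 0.85 ± 0.25 (edgeR adjusted p = 0.0485). The first call was lost without male 1 and the second without any animal but female 1. The groups do not overlap for either gene, but with 2 and 4 animals no exact permutation test can reach 0.05. How many of the 38 genes do not overlap was not counted. With close genes summed, 0 of 34 were called (0%). The sum of IGLV3-34, IGLV3-36 and IGLV3-44 was 8.33% and 9.76% in the males and 11.9% to 16.3% in the females, a log2 difference of -0.62 ± 0.24 (edgeR adjusted p = 0.343), and that of IGLV2-13 and IGLV2-23 was 8.25% and 8.58% in the males and 4.07% to 7.14% in the females, 0.62 ± 0.24 (edgeR adjusted p = 0.343). Sex and batch cannot be told apart here, and how the alleles of 2 and 4 animals are named was not tested.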

How the data were processed

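BCR libraries were made from 5' single-cell capture of blood mononuclear cells of 6 animals, per the labels' protocols. The submitters' processing notes name Cell Ranger (9.0.1), Seurat (5.0.1) and R (4.3.1). Which genome build, annotation and immunoglobulin reference were used is not given in the sources used here. Contig tables deposited by the authors hold counts of UMIs per contig, gene names and sequences, per the file headers, and a deposited matrix holds raw expression counts with cell names. Both kinds of count were used as deposited, and CPM were computed from the raw counts.

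Numbers of lambda cells per IGLV gene were summed per animal and group and tested with edgeR 4.0.16 (quasi-likelihood F test, R 4.3.3). Sums under 10 cells and genes under 20 cells were left out, library size was the lambda cells of the sum with no TMM factor, and Benjamini-Hochberg adjusted p under 0.05 was called. For subtypes, adjustment ran over all 304 tests. Fits had the animal as a block, except males against females, since each animal gave cells to every group, which pairs the sums. Standard errors are the log2 difference divided by the square root of F. Other measures were compared per animal by exact two-sided sign-flip permutation tests in Python 3.11.15. Cells were not treated as replicates, and spread between animals holds the technical noise of each library. Animals are numbered by accession within a sex. Scripts were tested on simulated data.

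Alternatives were TMM scaling, no gene filter, DESeq2 1.42.0, no block, 1 cell per clonotype, contigs with 3 or more UMIs, each animal left out, and subsets of cells or animals. Named genes were the 10 most used, up to 6 called genes per direction and comparison, and genes over 1% in 1 animal and at 0 in another. Members and lists were chosen with earlier results of these data known. A treatment column in the cell table was not used, since the labels describe unmanipulated animals.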

Additional observations from a re-analysis of the deposited data

Results flagged for a closer look

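Of 94 values checked for an animal far from the others, 15 were set apart, where chance sets apart about 1 in 20. Female 4, the animal with the fewest lambda cells, accounts for 8 of them. It had the highest IGLV1-85 share, 6.50% of lambda cells against 3.45% to 4.37% in the others. Its V region divergence was the highest in M-MBC 1 (0.907 differences per 100 bases against 0.311 to 0.484), CD11c+ MBC 1 (2.48 against 0.464 to 1.11), C-MBC 2 (5.63 against 2.82 to 3.85), Naive B cells 1 (0.313 against 0.023 to 0.0882) and IgD cells (1.02 against 0.178 to 0.480). Its share of cells with a CDR3 found in another animal was the lowest in M-MBC 2 (6.25% against 35.5% to 52.0%) and CD11c+ MBC 1 (17.9% against 53.5% to 67.5%). The part of its small cell number in these values was not tested.

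In the males, IGLV1-67 took 2.69% of lambda cells in male 2, against 4.05% to 4.70% in the others, and IGLV2-46 took 5.90% in male 1, against 2.85% to 3.50%. The IGLJ3 share was 4.32 points higher in switched than in unswitched cells of male 1, while the difference was -1.87 to -0.916 points in the others. In female 3, lambda CDR3s of M-MBC 2 averaged 12.04 amino acids, against 12.25 to 12.33, the lambda share of C-MBC 2 was 45.8%, against 56.0% to 61.2%, and 64.3% of IgM lambda cells had a shared CDR3, against 53.3% to 56.6%. In female 2, CDR3s of IgM cells averaged 12.39 amino acids, against 12.27 to 12.29.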

How the results depend on the processing

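For switched against unswitched cells, 1 gene was called with no filter, 1 with DESeq2 and 5 with close genes summed, and 0 to 4 with 1 animal left out. Within memory subtypes 0 genes were called with no filter, TMM scaling, DESeq2, no replicate block, 1 cell per clonotype or 3 UMIs, and 0 to 3 with 1 animal left out. For subtypes 16 calls were made with DESeq2, 2 in females alone, 4 in males alone, 23 with no replicate block, and 9 to 26 with 1 animal left out. With close genes summed, leaving out an animal gave 10 (male 1), 6 (male 2), 17 (female 1), 13 (female 2), 12 (female 3) and 16 (female 4) calls. For IgA against IgG, 3 genes were called with TMM scaling and 0 to 0 with 1 animal left out. Between the sexes 1 gene was called with no filter, DESeq2, 3 UMIs or unswitched cells alone, 0 in Naive B cells 1 alone or with close genes summed, and 0 to 2 with 1 animal left out. For IGHV4 against IGHV3, 0 were called in Naive B cells 1 alone and 3 to 5 with 1 animal left out. The rise of the lambda share in switched cells was 3.76 points with 1 cell per clonotype (exact permutation p = 0.09375), 3.86 without the replicate block (exact permutation p = 0.242), 3.70 in memory subtypes (exact permutation p = 0.3125) and 2.27 to 4.58 with 1 animal left out. Heavy families passing between lambda and kappa cells numbered 0 with no replicate block and 0 in Naive B cells 1 alone, where the IGHV2 difference reversed to -0.36. The IGLJ3 difference reversed to 0.67 within memory subtypes and the shared CDR3 difference between lambda and kappa cells to 5.14 in Naive B cells 1. With 1 animal left out, that difference ran from -5.00 to -2.18, the shared CDR3 difference of switched cells from -41.1 to -37.8, divergence from 2.13 to 2.47, and CDR3 length differences from 0.0802 to 0.105 (switched) and 1.39 to 1.41 (lambda over kappa). The block changed no other call. The cause of these changes was not tested. Cell numbers limit what could be seen: a share of 0 in 1 animal allows up to 18.8% in the smallest subtype sum.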
